A study of Homo sapiens with 6 samples.

Results

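TNFRSF12A encodes Fn14, a small member of the tumour necrosis factor (TNF) receptor superfamily, and was followed here together with its ligand and the genes it signals through. The 10 genes were TNFRSF12A, TNFSF12, TRAF2, TRAF3, BIRC2, BIRC3, MAP3K14, RELB, NFKB2 and NFKBIA, found by symbol among the 63140 genes of the deposited count table. TNFRSF12A was selected on its measured log2 fold change in the comparison described here, in which 9 of the 16754 genes tested had a larger one, so its rise is given as a description with no test. The other 9 were listed for their place in the pathway.

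The RNA came from confluent cultures of HEK293, a long-established human line of embryonic kidney origin. There were 3 libraries from cells given 100 nM GSK-A1 for 24 h and 3 from cells given the solvent dimethyl sulfoxide (DMSO), labelled as biological replicates. GSK-A1 blocks PI4KA, the lipid kinase that makes the plasma membrane's pool of phosphatidylinositol phosphate. Nothing in the labels says whether the replicates were grown on separate days, so p-values measure the spread between these cultures.

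Fn14 is bound by the cytokine TWEAK, the product of TNFSF12. It has no death domain and passes its signal on through TRAF adaptor proteins. In unstimulated cells TRAF3, together with TRAF2 and the ubiquitin ligases cIAP1 and cIAP2 (BIRC2 and BIRC3), keeps the kinase NIK (MAP3K14) low by marking it for degradation. Receptors that recruit these adaptors away let NIK accumulate, and NIK then acts through IKK-alpha to cut the NFKB2 precursor p100 down to p52, which pairs with RELB. This branch is called noncanonical, in contrast to the canonical branch that is held by I-kappa-B-alpha, the product of NFKBIA. RNA counts read the transcripts of these genes and not NIK stability or p100 processing.

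Total counts ran from 33040178 to 47777233 per library, and normalisation factors from 0.993 to 1.00. Library pairs within DMSO correlated at 0.997 (Pearson's r of log2 CPM across the 16754 genes, which are not independent replicates), whereas GSK-A1 replicate 2 reached 0.995 and 0.994 with the other GSK-A1 libraries. That library therefore stood somewhat apart. Of the markers of the line, VIM, NEFL, KRT8, KRT18 and CDH2 were abundant, PAX2 stood at 2.71 CPM (counts scaled to the size of the library) with DMSO, and NEFM and INA were at or near 0. Of the 6 line markers tested, VIM (0.17; edgeR adjusted p = 0.00423) and KRT8 (0.11; 0.0373) were called higher with GSK-A1 and PAX2 lower (-0.43; 0.0177). The 6 leukocyte markers summed to between 0.469 and 0.987 CPM in every library, and CD163, a scavenger receptor for TWEAK, had no count in any. The 5 endothelial and fibroblast markers summed to 16.4 to 17.5 CPM with DMSO and 10.1 to 12.6 CPM with GSK-A1. These were mostly COL3A1 and COL1A1, with PECAM1 and CDH5 at or near 0. COL3A1 was called lower with GSK-A1 (log2 fold change -0.81, edgeR adjusted p = 3.55e-06) and COL1A1 was not called (-0.14, edgeR adjusted p = 0.396). The part of these markers in the results below was not tested. In bulk RNA a change in the share of cells that express a gene and a change in RNA per cell cannot be told apart.

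Promoter windows from RefSeq (GRCh38.p14) were found for 7 of the 10 genes and held 10 annotated starts; TNFRSF12A, TNFSF12 and RELB had none. Stretches of 30 bases around matches to the NF-kB consensus, searched on both strands from 250 bases before to 50 bases after a start, are shown because NFKB2, BIRC3 and NFKBIA are themselves textbook NF-kB targets. The sequences run 5′ to 3′ on the gene's strand, and capitals mark the match.

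NFKB2, chr10:102394462-102394491, plus strand: aaacgtcatGGGAATTCCCCcctccggggg
NFKB2, chr10:102394490-102394519, plus strand: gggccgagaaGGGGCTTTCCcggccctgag
NFKB2, chr10:102395519-102395548, plus strand: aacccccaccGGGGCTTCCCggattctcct
NFKB2, chr10:102395674-102395703, plus strand: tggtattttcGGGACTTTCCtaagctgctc
BIRC3, chr11:102317275-102317304, plus strand: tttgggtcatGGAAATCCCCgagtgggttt
BIRC3, chr11:102317339-102317368, plus strand: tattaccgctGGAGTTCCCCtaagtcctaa
NFKBIA, chr14:35404811-35404840, minus strand: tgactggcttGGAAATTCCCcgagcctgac
TRAF3, chr14:102777406-102777435, plus strand: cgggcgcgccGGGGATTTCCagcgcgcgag

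Of all 35116 windows in the table, 11.3% held this consensus. The matches of NFKB2 lay at 2 of its 3 starts, the nearest of them 21 to 12 bases before a start. The first stretch holds 2 matches shifted by 1 base, 1 of which reads the same on both strands. The first 2 stretches of NFKB2 precede a start whose 250 bases upstream all lie within exons of NFKB2 in GENCODE 29. NFKBIA had its match 81 to 72 bases before the start, and TRAF3 33 to 24 bases before. No match was found in the windows of TRAF2, BIRC2 or MAP3K14. The EGR motif GCGNGGGCG, held by 9.43% of windows, was in those of NFKB2, BIRC2 and TRAF3. The AP-1 motif TGANTCA (7.71% of windows), the TEAD motif GGAATG (14%) and the CArG box (1.29%) were in none of the 10. A match describes these letters only. Of the genes with a match, NFKB2 rose with GSK-A1 while NFKBIA, BIRC3 and TRAF3 did not pass the test. NFKB2 was the only called gene with a window, so whether a match goes with a call cannot be read from these genes.

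**Figure D1:**
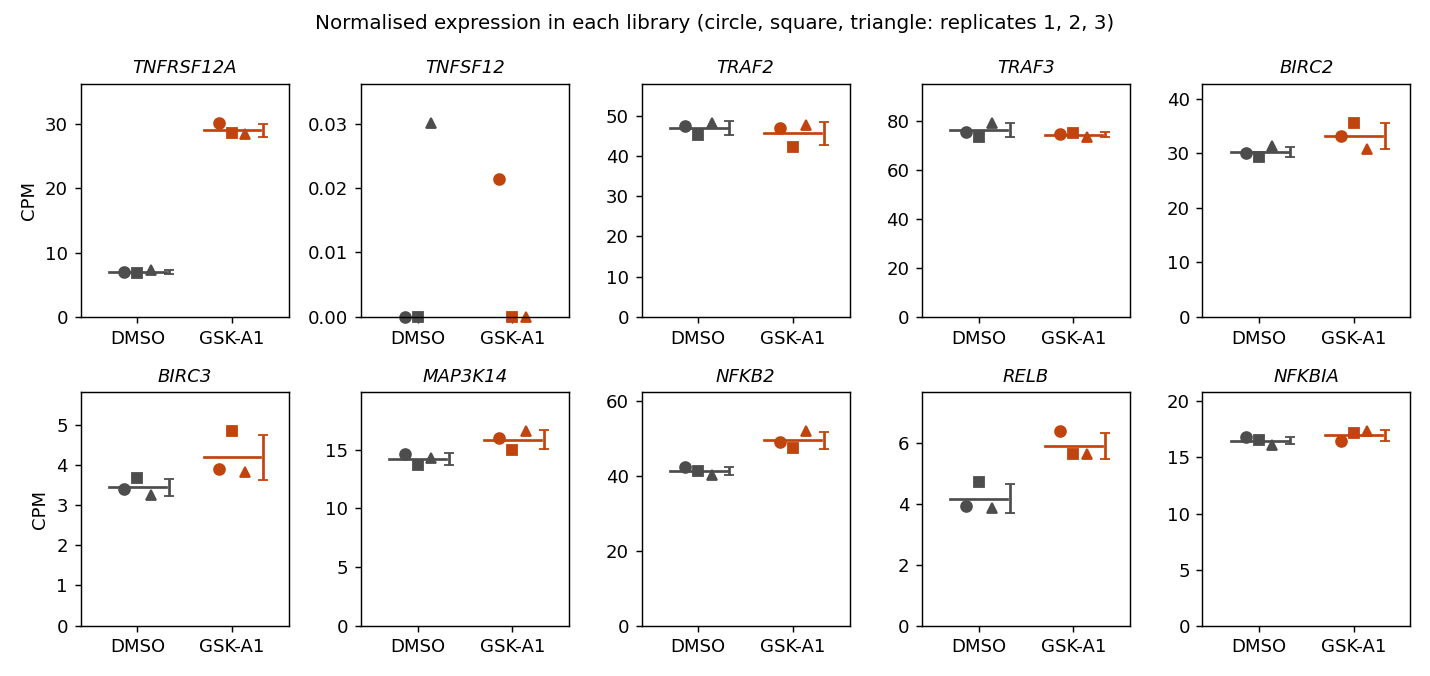
Normalised expression (CPM, y axis from 0, a scale for each gene) of the 10 genes in 3 DMSO and 3 GSK-A1 libraries. Symbols mark replicates, horizontal lines the mean and bars the SD (not drawn for TNFSF12, which had 1 count or none in each library). TNFRSF12A, RELB, NFKB2, BIRC3 and MAP3K14 have all GSK-A1 libraries above all DMSO libraries.

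The receptor came first. TNFRSF12A (ENSG00000006327; GENCODE 29, GRCh38, chr16:3018445-3022383, plus strand, protein-coding) had 331, 308 and 242 counts in DMSO replicates 1 to 3 and 1407, 973 and 1023 in GSK-A1 replicates 1 to 3. As normalised expression these were 6.90, 6.77 and 7.30 CPM with DMSO and 30.2, 28.5 and 28.4 CPM with GSK-A1. The lowest GSK-A1 library was far above the highest DMSO library, and the SD within a group was 3.96% of the mean with DMSO and 3.48% with GSK-A1. The log2 fold change was 2.06 ± 0.06 (SE), or 4.17-fold. CLDN6, on the other strand, overlaps 2.17% of its exonic bases and had 37 counts over all libraries, and none of its 50-base stretches was shared with another gene of the annotation.

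The ligand was at the limit of detection. TNFSF12 (ENSG00000239697) had 1 count in DMSO replicate 3, 1 in GSK-A1 replicate 1 and none in the other libraries, so it was not tested and no fold is given. A count of 0 allows up to 3 counts, which is between 0.0626 and 0.0879 CPM in the libraries with no count (counting error only). The read-through gene TNFSF12-TNFSF13 covered 29.4% of the exonic length of TNFSF12 in GENCODE 29 and had no count in any library. Reads that fall in both genes may be left uncounted by some counting settings, which are not given in the sources used here, and the part of this in the low count was not tested.

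The adaptors TRAF2 and TRAF3, which hold NIK in check, did not pass the test. Among the 16754 genes tested 22.9% were called at an adjusted p under 0.05, and 2 of the 8 tested genes other than TNFRSF12A were, or 25.0%, a share near that of all genes. TRAF2 stood at 47.6, 45.1 and 48.3 CPM with DMSO and at 46.9, 42.3 and 47.7 CPM with GSK-A1. Its groups overlapped, with GSK-A1 replicate 2 the lowest library, and the difference on the log2 scale was -0.04 ± 0.05 (SE, edgeR adjusted p = 0.614; 95% interval -0.15 to 0.07). Without GSK-A1 replicate 2 its sign turned, to 0.014 (edgeR adjusted p = 0.838). TRAF3 was at 75.6, 73.6 and 79.3 CPM with DMSO and 74.6, 75.2 and 73.3 CPM with GSK-A1. These overlapped as well, at -0.03 ± 0.04 (edgeR adjusted p = 0.603; 95% interval -0.12 to 0.05). The upper bounds of both intervals lie below the fold changes of RELB and NFKB2 given below; the differences between these genes were not tested.

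The ubiquitin ligases BIRC2 and BIRC3 had values slightly above those of DMSO that did not pass the test. BIRC2 was at 30.1, 29.4 and 31.3 CPM with DMSO and at 33.1, 35.6 and 30.7 CPM with GSK-A1. It differed by 0.13 ± 0.06 on the log2 scale (SE, edgeR adjusted p = 0.0951), and GSK-A1 replicate 3 lay within the DMSO range. Without that replicate BIRC2 was called, at 0.19 (edgeR adjusted p = 0.0244). BIRC3, much scarcer, had 3.40, 3.67 and 3.26 CPM with DMSO and 3.88, 4.83 and 3.83 CPM with GSK-A1. All GSK-A1 libraries of BIRC3 were above all DMSO libraries, replicate 2 the most. With 108 to 181 counts per library its spread was wide, and the log2 fold change was 0.26 ± 0.11 (edgeR adjusted p = 0.107; 95% interval 0.02 to 0.51). Without GSK-A1 replicate 2 it was 0.16 (edgeR adjusted p = 0.320). The paralogs share little sequence at read length: 0.273% of the 50-base stretches of BIRC2 also occurred in BIRC3. For NFKB2, below, 0.535% occurred in another annotated gene.

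MAP3K14, which encodes NIK, was at 14.7, 13.7 and 14.3 CPM with DMSO and at 16.05, 14.998 and 16.6 CPM with GSK-A1. The groups did not overlap, yet the log2 fold change of 0.16 ± 0.06 (SE) missed the threshold (edgeR adjusted p = 0.0773). Without GSK-A1 replicate 2, its lowest GSK-A1 library, it was called at 0.20 (edgeR adjusted p = 0.0103). MAP3K14-AS1, on the other strand, overlaps 12.3% of its exonic bases; it had 322 counts over the 6 libraries, against at least 474 for MAP3K14 in each library. The strand setting of the counting is not given in the sources used here.

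The transcription factor genes of the noncanonical branch, RELB and NFKB2, both rose. RELB (ENSG00000104856) had 189, 215 and 128 counts with DMSO and 298, 193 and 204 with GSK-A1, or 3.94, 4.73 and 3.86 CPM against 6.39, 5.65 and 5.66 CPM. DMSO replicate 2 was the highest control and was still below every GSK-A1 library. The rise was 0.50 ± 0.10 on the log2 scale (SE, edgeR adjusted p = 0.00261), a 1.41-fold level. NFKB2 (ENSG00000077150), whose replicates were tighter, was at 42.4, 41.3 and 40.2 CPM with DMSO and 49.1, 47.5 and 51.9 CPM with GSK-A1. It rose 1.198-fold, by 0.26 ± 0.05 (edgeR adjusted p = 9.96e-04), in 3 of 3 GSK-A1 libraries. Both were called in all 14 alternative fits, where the largest adjusted p was 0.0269 for RELB and 0.0126 for NFKB2.

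NFKBIA, the inhibitor of the canonical branch and one of its fast targets, was at 16.8, 16.6 and 16.1 CPM with DMSO and at 16.4, 17.2 and 17.3 CPM with GSK-A1. The groups overlapped, and the log2 difference was 0.04 ± 0.06 (SE, edgeR adjusted p = 0.683; 95% interval -0.08 to 0.16). Its sign turned under upper-quartile factors (-0.0030).

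Of the 8 tested genes other than TNFRSF12A, 4 (RELB, NFKB2, BIRC3 and MAP3K14) had every GSK-A1 library above every DMSO library, 0 had every one below and 4 overlapped. Over all genes tested 20.2% lay wholly above and 20.4% wholly below. The median log2 fold change of the 8 was 0.15, against -0.01 over all genes tested.

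**Figure D2:**
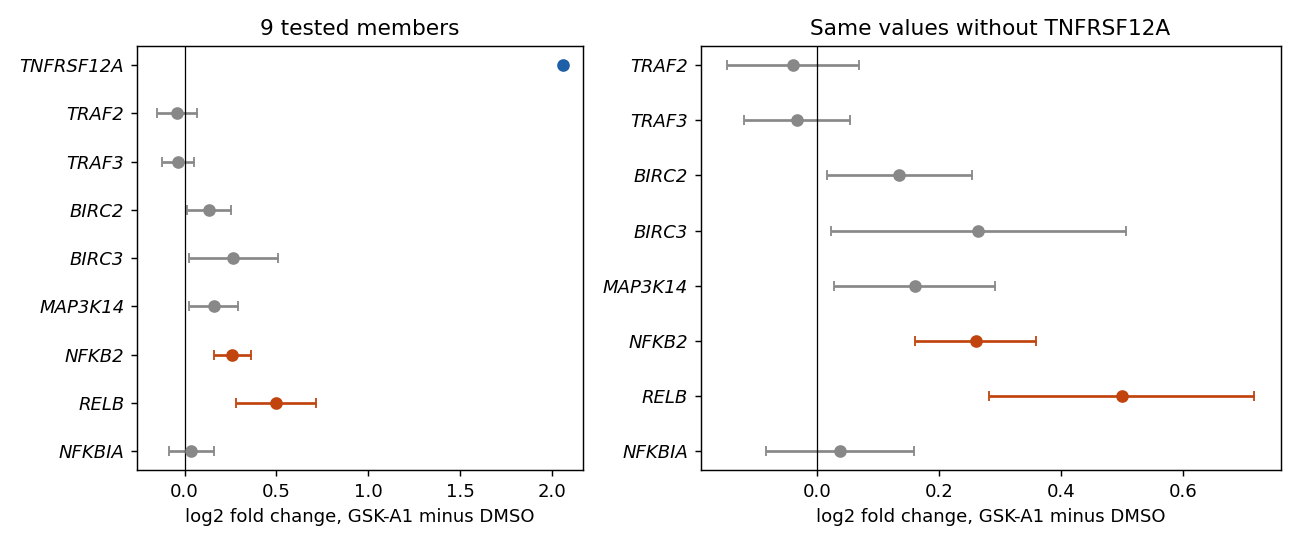
Log2 fold change (GSK-A1 minus DMSO, x axis) of the 9 genes that passed the filter, with its 95% interval except for TNFRSF12A, left, and for the 8 other than TNFRSF12A on a wider scale, right. RELB (0.50) and NFKB2 (0.26), in orange, were called, grey genes were not, and TNFRSF12A (2.06, blue) is shown as a point, without a test. The intervals are for single genes, not adjusted for the number tested, so those of BIRC2, BIRC3 and MAP3K14 exclude 0 without a call.

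Levels of different genes were compared per kilobase of merged exons in GENCODE 29. With DMSO the order from the top was TRAF2 (12.8 ± 0.5 CPM per kb, SD, n = 3), TRAF3 (9.22 ± 0.35), NFKB2 (9.21 ± 0.24), NFKBIA (6.95 ± 0.14), BIRC2 (6.67 ± 0.21), TNFRSF12A (3.78 ± 0.15), MAP3K14 (2.46 ± 0.08), RELB (1.376 ± 0.157), BIRC3 (0.458 ± 0.028) and TNFSF12. TRAF3 and NFKB2 overlapped between libraries, and so did NFKBIA and BIRC2, while the other neighbours were separate. With GSK-A1 the receptor gene moved from place 6 to place 1, at 15.7 ± 0.5 CPM per kb. TRAF2 (12.5 ± 0.8) and NFKB2 (11.04 ± 0.50) followed and overlapped, then TRAF3 (9.0 ± 0.1), and BIRC2 (7.32 ± 0.54) and NFKBIA (7.16 ± 0.20) overlapped. MAP3K14, RELB and BIRC3 kept places 7 to 9.

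**Figure D3:**
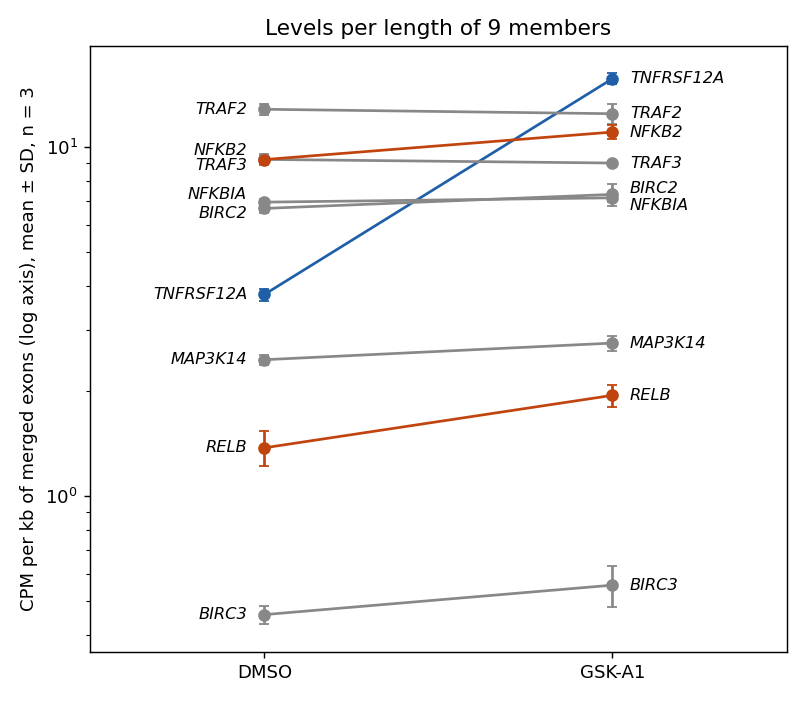
Level per length (CPM per kb of merged exons, log axis, mean ± SD over 3 libraries) of 9 genes with DMSO, left, and GSK-A1, right; TNFSF12 is left out. TNFRSF12A goes from 3.78 to 15.7 and crosses BIRC2, NFKBIA, TRAF3, NFKB2 and TRAF2.

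Within the TNF receptor superfamily, TNFRSF12A was the 8th of 29 receptor genes per length with DMSO and the 3rd with GSK-A1. TNFRSF10B, a death receptor for TRAIL, led in both groups at 46.4 ± 0.6 and 49.2 ± 0.3 CPM per kb (SD, n = 3). Apart from TNFRSF12A, 17 receptor genes were tested, 3 of which rose and 4 fell, against 12% of all genes called higher and 10.9% lower. TNFRSF21, also called death receptor 6, rose from 53.9 ± 0.9 to 63.1 ± 1.5 CPM (log2 fold change 0.23 ± 0.04, SE; edgeR adjusted p = 0.00105). RELT, a receptor of lymphoid tissue, rose by 0.22 ± 0.06 (edgeR adjusted p = 0.0148) and TNFRSF9, the co-stimulatory receptor 4-1BB, by 0.46 ± 0.14 (edgeR adjusted p = 0.0231). EDA2R, a receptor for ectodysplasin, went from 10.1 ± 0.3 to 7.06 ± 0.15 CPM (-0.52 ± 0.07; edgeR adjusted p = 1.21e-04). TNFRSF25 (-0.29 ± 0.09), TNFRSF19 (-0.20 ± 0.06) and the scarce TNFRSF8 (-1.14 ± 0.35, on 5 to 17 counts per library) were the other genes called lower. Each lost its call in 6 alternative fits, out of 14 for TNFRSF25 and TNFRSF19 and out of 12 with a result for TNFRSF8. Without GSK-A1 replicate 2 TNFRSF25 was at -0.19 (edgeR adjusted p = 0.0646). RELT lost its call in 3 fits and TNFRSF9 in 4. DESeq2 made 4 calls among the receptor genes, not all of them among these 7. It did not call TNFRSF9 (DESeq2 adjusted p = 0.0585), TNFRSF19 (0.0686) or TNFRSF25 (0.0513), and gave TNFRSF8 no adjusted p. Leaving out DMSO replicate 1 gave 2 calls, and leaving out DMSO replicate 2, DMSO replicate 3 or, of the treated libraries, replicate 1 gave 3. Calls over all genes fell as well in the DMSO fits, from 3835 to 2163, 2213 and 2206 without replicate 1, 2 or 3. EDA2R and TNFRSF21 passed in every alternative fit.

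Other receptors that feed the noncanonical branch were scarce or not called. CD40 and LTBR, the lymphotoxin beta receptor, were under 0.05 CPM in the mean of either group and were not tested. Whether the counting settings, raised above for TNFSF12, had a part in these low counts was not tested. TNFRSF11A, known as RANK, was at 24.4 ± 0.2 and 24.1 ± 0.4 CPM (log2 fold change -0.01 ± 0.05, SE; edgeR adjusted p = 0.888), with the sign turned without GSK-A1 replicate 3 (0.0053). The BAFF receptor gene TNFRSF13C was at 7.36, 7.72 and 8.51 CPM with DMSO and 6.14, 3.87 and 6.96 CPM with GSK-A1, replicate 2 the lowest (-0.45 ± 0.17; edgeR adjusted p = 0.0870). It was called lower at -0.26 without GSK-A1 replicate 2 (edgeR adjusted p = 0.0234) and at -0.60 without replicate 3 (0.00947). Among the 18 TNF ligand genes, 6 were tested and 0 were called by edgeR or in any alternative fit, DESeq2 and limma-voom included. At an unadjusted p under 0.05 there was 1. Over all genes tested edgeR called 22.9%, and 35.8% were under that unadjusted p. With 6 genes tested, a count of 0 cannot be told from the share of all genes. The largest value was TNFSF15, at -0.88 ± 0.35 (edgeR unadjusted p = 0.021, adjusted p = 0.0778).

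The TRAF and BIRC families each had 1 call among 6 tested genes, or 16.7% against 22.9% of all genes. Of the TRAF genes tested, TRAF6, an adaptor of the interleukin-1 and Toll-like receptors, rose from 15.7 ± 1.6 to 20.0 ± 0.7 CPM (log2 fold change 0.35 ± 0.07, SE; edgeR adjusted p = 0.00185) and the rest were not called. In the BIRC family XIAP, a caspase inhibitor, rose from 94.4 ± 1.0 to 113 ± 9 CPM (0.26 ± 0.05; edgeR adjusted p = 0.00111). Without GSK-A1 replicate 3 the BIRC family had 2 calls, with BIRC2. TRAF6 and XIAP kept their calls in every alternative fit.

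All 11 genes of the Rel and I-kappa-B family were tested and 3 rose, RELB, NFKB2 and REL, or 27.3%, near the 22.9% of all genes. REL, which encodes c-Rel, averaged 14.6 ± 0.7 CPM in DMSO libraries against 17.0 ± 0.9 in GSK-A1 libraries (log2 fold change 0.23 ± 0.06, SE; edgeR adjusted p = 0.0187). Its call was lost without DMSO replicate 1 (edgeR adjusted p = 0.108), DMSO replicate 3 (0.0551) or GSK-A1 replicate 1 (0.0742), and under upper-quartile factors (0.0503). The precursor gene of the canonical branch, NFKB1, stood at 27.9 ± 0.5 and 27.3 ± 1.3 CPM (-0.03 ± 0.05; edgeR adjusted p = 0.681), with the sign turned without GSK-A1 replicate 1 (0.0033). RELA was at 78.1 ± 1.0 and 82.8 ± 2.3 CPM (0.08 ± 0.04; edgeR adjusted p = 0.135), and was called higher without GSK-A1 replicate 2 (0.11; edgeR adjusted p = 0.0116). Whether RELB and NFKB2 changed more than RELA and NFKB1 was not tested.

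None of the 13 IKK complex and upstream kinase genes was called by edgeR, DESeq2 or limma-voom, against 22.9% of all genes by edgeR. At an unadjusted p under 0.05 the list held 4 genes, MAP3K14, CHUK, IKBKE and TAB2. Of all genes tested, 35.8% were under that unadjusted p. CHUK, which encodes IKK-alpha, was at 73.2 ± 2.2 and 79.0 ± 1.9 CPM (log2 fold change 0.11 ± 0.04, SE; edgeR adjusted p = 0.0626), and was called without GSK-A1 replicate 2 (0.0259) or 3 (0.0482). Leaving out GSK-A1 replicate 2 gave 3 calls in this list, leaving out replicate 3 of that group gave 2, and upper-quartile factors gave 1. The number called over all genes also changed with the library left out, as given at the end.

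Among ubiquitin editors of the pathway 4 of 14 tested genes rose and 0 fell, or 28.6% called, near the 22.9% of all genes. OTULIN, which removes linear ubiquitin chains, averaged 78.5 ± 1.6 CPM in DMSO libraries against 97.2 ± 1.1 in GSK-A1 libraries (log2 fold change 0.31 ± 0.04, SE; edgeR adjusted p = 4.11e-05). OTUD7B, a deubiquitinase known to act on TRAF3, went from 34.5 ± 0.9 to 42.3 ± 1.1 CPM (0.29 ± 0.05; edgeR adjusted p = 3.47e-04). Both passed in every alternative fit. ITCH (0.19 ± 0.06) and FBXW11 (0.13 ± 0.04), both parts of ubiquitin ligases, were the other calls, lost in 3 and 5 alternative fits. Leaving out DMSO replicate 1 or 3 gave 2 calls, and leaving out GSK-A1 replicate 3 gave 7. Calls over all genes fell from 3835 to 2163 and 2206 without DMSO replicate 1 or 3. TNFAIP3, the A20 feedback inhibitor, was at 7.10 ± 0.49 and 7.20 ± 0.43 CPM (0.01 ± 0.08; edgeR adjusted p = 0.925), with the sign turned without DMSO replicate 3 (-0.029) or GSK-A1 replicate 3 (-0.011).

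Known NF-kB target genes were read as a list of 46, of which 25 were tested. There were 7 called higher and 2 lower, a share of 36.0% against 22.9% of all genes, with a median log2 fold change of 0.04. RELB and NFKB2 are themselves 2 of the 7. GADD45B, a stress-induced growth-arrest gene, went from 7.90 ± 0.62 to 11.4 ± 0.7 CPM (0.52 ± 0.08, SE; edgeR adjusted p = 2.38e-04). IER3, an early response gene, rose by 0.43 ± 0.09 (edgeR adjusted p = 0.00338), beside REL. PLAU, the urokinase gene, and CXCL8, the interleukin-8 gene, rose by 1.12 ± 0.26 (edgeR adjusted p = 0.00588) and 1.29 ± 0.33 (edgeR adjusted p = 0.00989) from very low levels. PLAU had 13 to 15 counts with DMSO and 26 to 29 with GSK-A1, and CXCL8 6 to 14 against 15 to 27. The CXCL8 call was lost without DMSO replicate 1 (edgeR adjusted p = 0.0708) or GSK-A1 replicate 1 (0.0529). PLAU and CXCL8 had a result in 12 of the 14 alternative fits. CD83 (-0.30 ± 0.08; edgeR adjusted p = 0.0103) and BCL2L1 (-0.21 ± 0.06; edgeR adjusted p = 0.0145) were called lower. CD83 lost its call without DMSO replicate 2 (edgeR adjusted p = 0.0700), and BCL2L1 without DMSO replicate 1 (0.0562), 2 (0.0668) or 3 (0.0511). The feedback genes NFKBIA, TNFAIP3, NFKBIE, BCL3, TNIP1 and CYLD were not called. ICAM1, VCAM1, TRAF1, CCL5 and IL6 were too scarce to be tested.

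Counted once each, 87 pathway genes outside the 10 were tested, with 16 called higher and 6 lower, or 25.3% against 22.9% of all genes. In place of 22 calls there were 11 when DMSO replicate 1 was left out, and 14 when DMSO replicate 2, DMSO replicate 3 or the first GSK-A1 replicate was. Calls over all genes fell too, from 3835 to 2163, 2213 and 2206 without DMSO replicate 1, 2 or 3. The falls are therefore not particular to these genes. Some genes stand in more than 1 list.

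**Figure D4:**
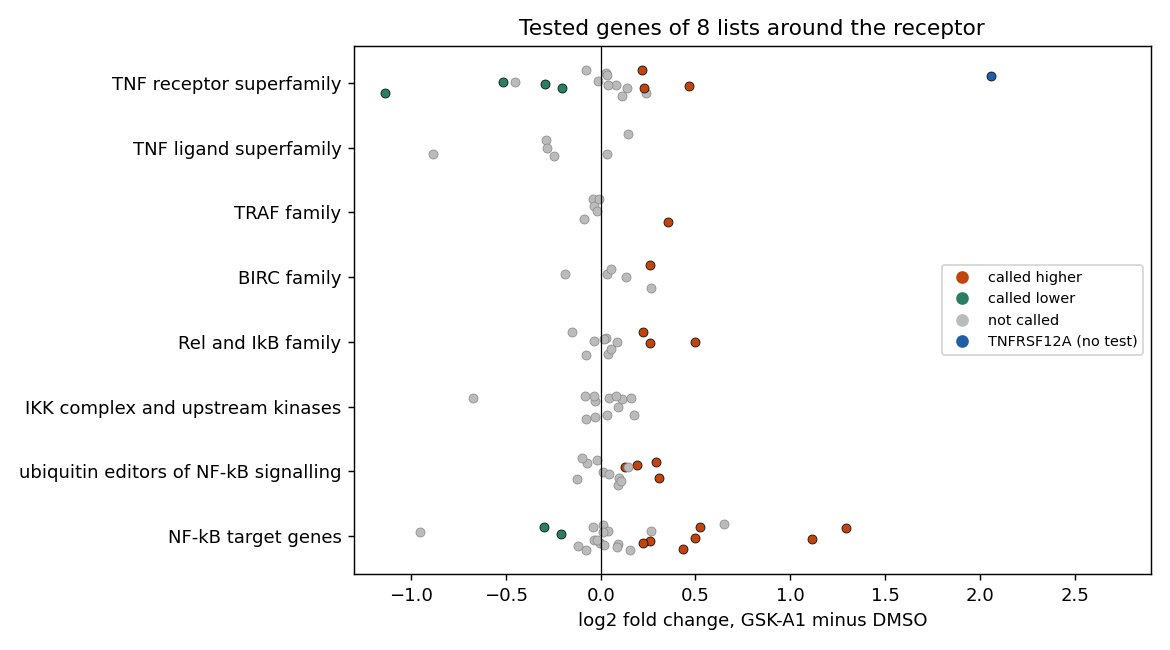
Log2 fold change (GSK-A1 minus DMSO, x axis) of each tested gene in 8 lists, with jitter on the y axis. Orange genes were called higher, green lower and grey not called; a gene in 2 lists is drawn in both. TNFRSF12A, selected on this value, is at 2.06, and the other tested receptors run from -1.14 to 0.46.

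The genes whose profile over the 6 libraries was nearest to that of TNFRSF12A were found among 12815 genes with a symbol and a mean of at least 1 CPM, by the root mean square difference of gene-centred log2 CPM. They were RHOB (0.099), EGR1 (0.112), FOS (0.118), MAFF (0.172) and ETV4 (0.172). RHOB encodes a small GTPase, and EGR1, FOS, MAFF and ETV4 encode transcription factors. RHOB had 92.6, 93.4 and 86.8 CPM with DMSO and 346, 366 and 332 CPM with GSK-A1. EGR1 had 11.4, 10.1 and 12.1 CPM with DMSO and 51.6, 55.2 and 49.4 CPM with GSK-A1. Their log2 fold changes were 1.94 and 2.22, and the other 3 lay between 1.72 (ETV4) and 2.30 (MAFF); these genes were picked for their pattern, so no test is given. Any gene with a rise of this size and a small spread is near by this measure. With a prior count of 0.5 the same 5 genes led, and without GSK-A1 replicate 2 there were 4 of them, with C11orf96 in place of ETV4. TNFSF12, under 1 CPM, was not a candidate. None of the other 9 pathway genes was among the 5, which follows from the size of their changes and is not a separate result. RELB, the one with the largest fold change of those tested, went up by 0.50 where TNFRSF12A went up by 2.06.

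**Figure D5:**
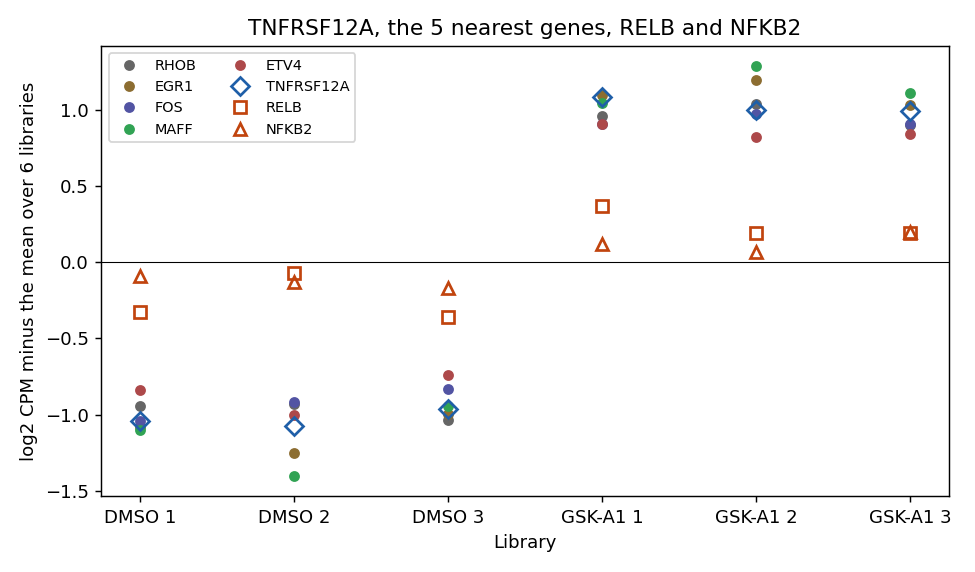
Log2 CPM minus the gene's mean over the 6 libraries (y axis) in each library (x axis) for TNFRSF12A, the 5 nearest genes, RELB and NFKB2. The nearest genes, picked for this pattern, lie around the TNFRSF12A diamonds in both groups. RELB and NFKB2, whose fold changes were smaller, lie nearer 0.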

How the data were processed

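Gene-level raw counts of 6 HEK293 libraries were used as the authors deposited them. Per the submitters' processing notes, cutadapt 5.1, STAR 2.7.11b, featureCounts from Subread 2.1.1 and DESeq2 1.38.0 were used with GRCh38.p13; the annotation release, strand setting and rule for overlapping genes are not given in the sources used here. Per the labels, libraries were made with a stranded kit and pooled. Genes were kept by filterByExpr (smallest count 10, smallest total 15) and tested with edgeR 4.0.16 in R 4.3.3 (TMM factors, robust quasi-likelihood F test, no covariate, Benjamini-Hochberg over all 16754 genes, called under 0.05). Standard errors came from the ratio of each log2 coefficient to the root of its F. CPM are counts over the TMM-adjusted library total, mean ± SD. DESeq2 1.42.0 and limma-voom (limma 3.58.1) were alternatives, with other factors and filters, a replicate block and fits without 1 library. The code was tested on simulated counts. GENCODE 29 (GRCh38) gave lengths and overlaps. TAB2 and ITCH were on 2 lines each, of which the line with more counts was used, and the symbol SOD2 was not matched.

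The genes, lists, tests and motifs were chosen with earlier results of these data known. Named were the 10 genes, up to 3 called genes with the smallest p of each list and the 5 genes nearest to TNFRSF12A; other genes named were chosen after their values were seen, to complete small counts or give a gene's role in the pathway. A list of pathway genes is not reported here, other than within the count over all of them.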

Additional observations from a re-analysis of the deposited data

How the results depend on the processing

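RELB and NFKB2 were called in all 14 alternative fits. Under upper-quartile factors NFKBIA turned to -0.0030, and with 1 library left out TRAF2 ranged from -0.070 to 0.014, positive without GSK-A1 replicate 2. The number of genes called, 3835, ranged from 2163 to 4890 with 1 library left out and was 1871 at an adjusted p under 0.01. The number of pathway genes outside the 10 ranged from 11 to 29 with 1 library left out, and that of the 10 other than TNFRSF12A from 2 to 3. Each of these fits has fewer samples. Upper-quartile factors lowered the share of higher calls from 52.3% to 33.3% and moved the median of all genes from -0.01 to -0.05. Same-numbered libraries deviated together only weakly (correlations of 0.011, 0.019 and 0.032), against -0.033 to 0.012 for differently numbered ones. The numbers were not taken as pairs. With the replicate block 4127 genes, 2 of the 8 genes and 25 pathway genes were called. TNFSF12, with at most 1 count in a library, could not be tested here.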
